A study of Mus musculus with 6 samples.

Results

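The genes described here are 33 markers and regulators of mouse alveolar macrophages, chosen by symbol from the 23413 genes of the deposited count table. They comprise 18 surface, cytoskeletal and secreted markers, 7 transcription factors and 8 genes of lipid uptake and storage. Of these, 32 were found under the listed symbol, and Spi1 under its older name Sfpi1. The table also uses Siglec5 for Siglecf, Chi3l3 for Chil3 and 1600029D21Rik for Plet1.

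Alveolar macrophages live in the airspaces of the lung, where they clear surfactant lipid and inhaled particles. Their identity depends on GM-CSF and TGF-beta signals that maintain the nuclear receptor PPAR-gamma, which in turn drives genes of lipid uptake, binding and storage. PU.1, the C/EBP factors and Bhlhe40 and Bhlhe41 act beside it, while Maf, a factor that restrains self-renewal, is low in these cells.

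Wild-type alveolar macrophages were taken from mice by lavage and studied by RNA-seq in 3 groups of 2 libraries. LPS cells received 100 ng/mL lipopolysaccharide, a bacterial membrane component sensed through Tlr4, in culture for 4 h. LPS + VD3 cells received the same LPS dose plus vitamin D3 (VD3) at 50 nM, which once activated binds the vitamin D receptor, for the same time. Treated cells were kept in complete RPMI 1640 medium. For the control cells the sources used here give neither medium nor time in culture, so LPS and culture cannot be told apart if controls were not cultured alongside. No strain, sex or age of the mice is given. Library totals were 5022314 to 5465223 counts, and the limit that a count of 0 allows, 3 counts, is 0.549 to 0.597 CPM of the library total, for counting error only. Levels below are CPM, each gene's count relative to the library total after TMM scaling. No label states whether a group's libraries are from different animals or wells. The p-values therefore reflect only how far these libraries differ, and that spread may be technical.

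Within the LPS group the libraries disagreed more than elsewhere. Across genes, log2 CPM correlated at 0.972 (Pearson) between them, against 0.993 for control and 0.984 for LPS + VD3. Spearman's rho between the difference of the paired libraries and transcript GC was 0.691 for LPS, 0.251 for control and 0.192 for LPS + VD3. These describe genes, which are not independent replicates. LPS 1 also carries a title from another number series than the other 5 libraries, and values without it are given beside the results that rest on it.

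The plot of the within-group difference against GC content shows the same for the members. LPS 1 held 1.88 times the CPM of LPS 2 for Sfpi1 (58.9% GC), but 0.666 times for Cd36 (38.5% GC) and 0.695 times for Olr1 (42.0% GC). Marco and Kcnn3 had ratios of 1.02 and 0.999. Not all members followed GC content, with ratios of 1.42 for Ear2 (44.1% GC) and 1.12 for Cebpb (67.2% GC). The part of GC content in the results was not tested beyond the GC offsets given below.

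**Figure D1:**
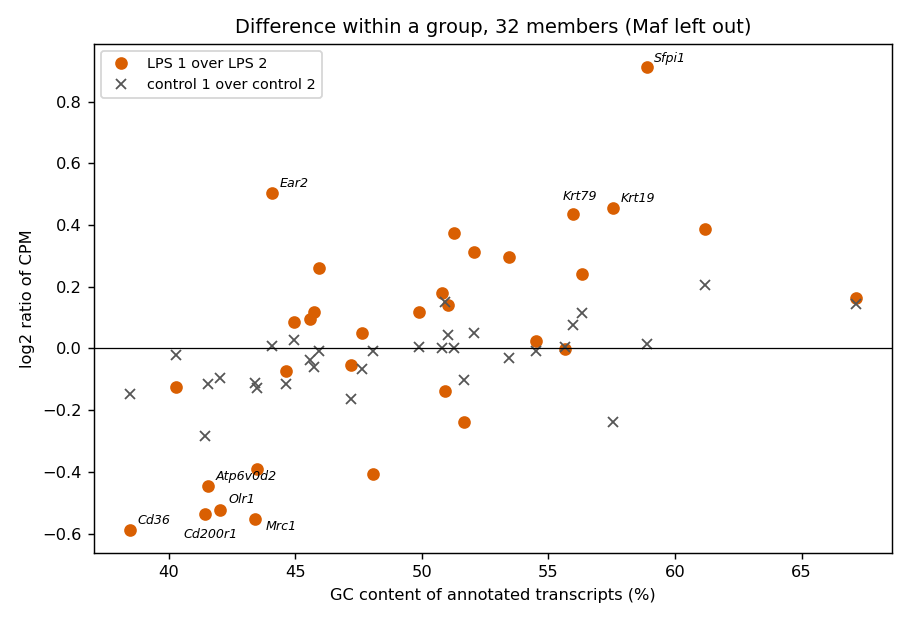
GC content of the annotated transcripts (x, %) against the log2 ratio of the CPM of library 1 to library 2 (y) for 32 members, LPS libraries as circles and control libraries as crosses. Among the LPS points Cd36 lies near the bottom left and Sfpi1 at the top, with Cebpa and Cebpb lower and further right. The control crosses span -0.28 to 0.20.

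The defining markers of the labelled cell type were present. In control cells the highest level per kilobase of exon among the members was that of Chi3l3, a secreted chitinase-like protein (9871 CPM per kb), followed by the lipase Lpl (1640) and the tetraspanin Cd9 (1273). The scavenger receptor Marco, the membrane-bound carbonic anhydrase Car4 and the surface protein 1600029D21Rik stood at 746, 740 and 753 CPM per kb. Siglec5, the sialic-acid-binding lectin by which these cells are sorted, was at 76.9, and Maf was lowest at 0.0396.

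Markers of epithelium, lymphocytes and eosinophils were scarce, while those of other macrophages were not. The summed level of 10 epithelial markers was 1.54 to 5.54 CPM over all 6 libraries, that of 9 lymphocyte markers 0.628 to 3.18 CPM and that of 4 eosinophil markers 1.23 to 3.18 CPM. Sftpc, Cd3e, Mpo, S100a9, Prg2, Epx and Ccr3 had 0 counts in every library. Of 8 neutrophil markers, 4 were at 0 throughout, and the sum was 15.5 to 18.2 CPM in control, 19.1 to 25.7 in LPS and 28.1 to 34.1 in LPS + VD3. The sum of 5 dendritic cell markers was 17.6 to 24.2, 10.9 to 11.3 and 14.9 to 15.1 CPM in that order. The sum of 16 markers of monocytes and other tissue macrophages was 386 to 393 CPM in control, 580 to 698 in LPS and 511 to 527 in LPS + VD3, with the matrix proteoglycan Vcan at means of 3.56, 317 and 193 CPM. The part of these markers in the results below was not tested.

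Some members share sequence with other genes, and how reads with several matches were counted is not given in the sources used here. Of the 50-base words in the longest coding transcript, 57.4% for Ear1 and 41.5% for Ear2 also occur in other transcripts, chiefly those of each other, Ear10 and Ear pseudogenes. The share was 29.4% for Chi3l3 (with Chil4), 21.1% for Fabp5 (with pseudogenes) and 9.61% for Itgax (with Itgad), and under 5% for the other 28 members, 4.89% in Plin2 being the highest. The counts of Ear1, Ear2, Chi3l3 and Fabp5 are uncertain for that reason.

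Promoter windows are shown for the members on which the results below turn. RefSeq promoters of the GRCm38.p6 build were found for 22 of the 33 members, and the 250 bases before the start were searched on both strands for 4 motifs. TGANTCA, bound by AP-1, was in 5 of 22 members (Cd68, Cidec, Itgax, 1600029D21Rik and Olr1) and in 6.75% of all 32851 windows. The NF-kB motif searched, GGG and TTTCC with any 2 bases between them, was in 2 members (Marco and Cd9) and in 1.41% of all windows. AGGTCA, the half-site of nuclear receptors such as PPAR-gamma and the vitamin D receptor, was in 6 members and in 14.0% of all windows, and GAGGAA, the core of PU.1 sites, in 7 members and in 23.3%. Motif matches did not overlap each other in the windows shown. A match is a description of the letters and not a site in use, and the windows with no match say only that these letters are not in them.

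The windows of the 4 markers and lipid genes that were higher than control in LPS + VD3, and of Kcnn3, are given 5′ to 3′ on the strand of the gene, with motif matches on either strand in capitals. Marco lies at chr1:120505025-120505274 (minus), Car4 at chr11:84957504-84957753 (plus), 1600029D21Rik at chr9:50494275-50494524 (plus), Olr1 at chr6:129507166-129507415 (minus) and Kcnn3 at chr3:89519914-89520163 (plus).
Marco: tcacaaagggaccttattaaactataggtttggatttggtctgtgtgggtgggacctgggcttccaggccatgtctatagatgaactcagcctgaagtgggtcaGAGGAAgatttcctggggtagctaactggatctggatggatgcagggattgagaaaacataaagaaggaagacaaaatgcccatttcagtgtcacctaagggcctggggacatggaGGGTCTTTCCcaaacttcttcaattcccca
Car4: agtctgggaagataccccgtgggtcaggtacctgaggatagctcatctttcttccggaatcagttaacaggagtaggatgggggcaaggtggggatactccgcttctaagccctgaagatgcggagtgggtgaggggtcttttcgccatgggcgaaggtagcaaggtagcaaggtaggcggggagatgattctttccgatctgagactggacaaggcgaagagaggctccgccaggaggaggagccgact
1600029D21Rik: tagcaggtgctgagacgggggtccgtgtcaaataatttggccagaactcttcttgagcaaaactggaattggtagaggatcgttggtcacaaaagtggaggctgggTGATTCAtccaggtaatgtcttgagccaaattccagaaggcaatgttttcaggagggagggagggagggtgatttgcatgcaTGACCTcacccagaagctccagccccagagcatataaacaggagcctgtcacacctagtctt
Olr1: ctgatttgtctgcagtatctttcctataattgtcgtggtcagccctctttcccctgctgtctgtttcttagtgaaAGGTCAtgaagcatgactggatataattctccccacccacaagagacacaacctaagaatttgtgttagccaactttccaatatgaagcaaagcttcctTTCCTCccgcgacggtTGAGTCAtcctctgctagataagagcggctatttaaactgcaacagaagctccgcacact
Kcnn3: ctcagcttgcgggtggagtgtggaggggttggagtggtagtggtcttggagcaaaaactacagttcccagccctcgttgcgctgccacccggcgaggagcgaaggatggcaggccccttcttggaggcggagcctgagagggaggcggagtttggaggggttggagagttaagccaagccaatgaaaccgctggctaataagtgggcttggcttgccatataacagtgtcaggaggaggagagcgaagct
Marco carries a GAGGAA at -146 to -141 and an NF-kB match at -30 to -21, counted from the start. In 1600029D21Rik, a TGANTCA match lies at -144 to -138 and an AGGTCA on the opposite strand at -62 to -57. Olr1 holds an AGGTCA at -175 to -170, a GAGGAA on the opposite strand at -76 to -71 and a TGANTCA match at -60 to -54. Car4 and Kcnn3 hold none of the 4 motifs in this window.

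All 33 members passed the filter on low counts, Maf only through the LPS + VD3 libraries, where it is highest; its call against control is therefore no evidence of a difference, and its counts are given as a description. The plot of members by library shows their levels in all 6 libraries.

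**Figure D2:**
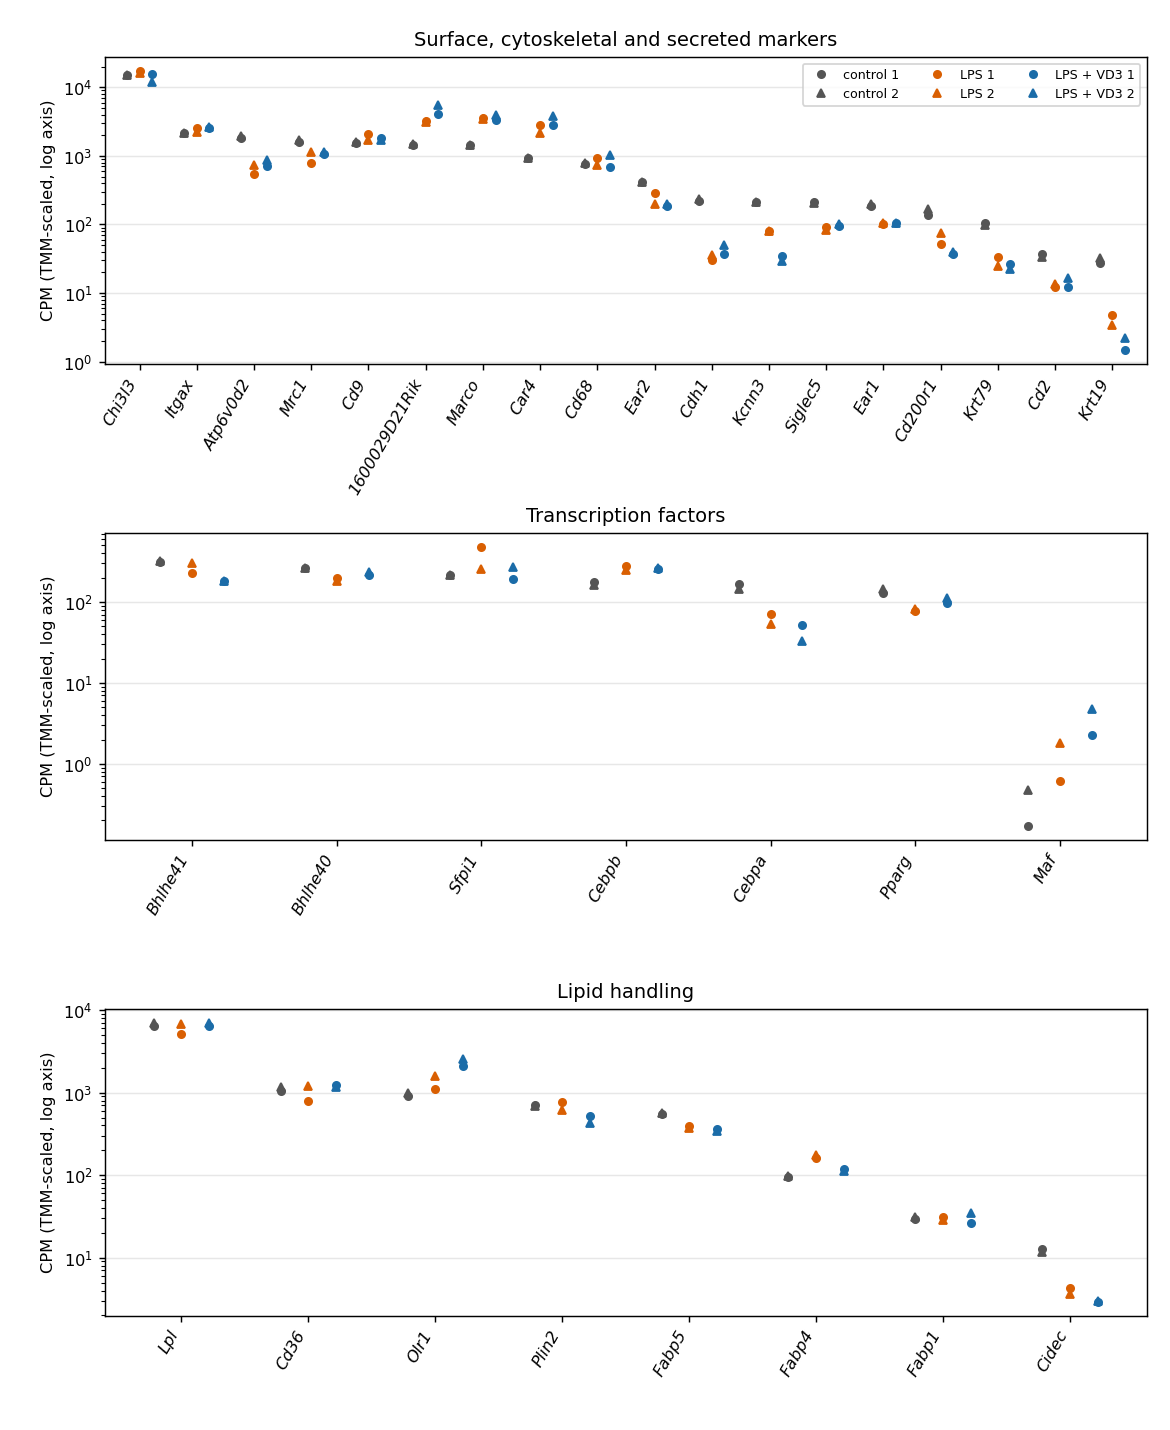
CPM of each member (y, log axis, TMM-scaled) in control, LPS and LPS + VD3 libraries (circle for library 1, triangle for library 2), with surface and secreted markers, transcription factors and lipid genes in separate panels, each ordered by the control mean. Krt19 and Cdh1 show the widest drop from control to LPS, and Car4, Marco and 1600029D21Rik lie above control in all 4 treated libraries.

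After LPS alone, the identity markers split in opposite directions, and more of them were lower than higher. Of 33 members 16 fell and 6 rose, 66.7% of them, in edgeR's quasi-likelihood test at adjusted p under 0.05. Over all 10724 genes tested, 31.8% were called, 16.2% lower and 15.7% higher. The median log2 fold change was -0.26 over the members and 0.01 over all genes tested. Groups did not overlap for 28 of 33 members, against 65.2% of all genes tested. In bulk RNA, fewer cells of a type and less RNA per cell cannot be told apart. Without LPS 1 the test also called 16 lower and 6 higher, with Olr1 in place of Sfpi1. Scaling by library totals alone shifts the median of all genes by -0.29 and makes 26.2% of calls higher in place of 49.2%, and the members then split into 18 lower and 4 higher.

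Among the 18 surface and secreted markers, 11 fell, 3 rose and 4 did not pass, with a median log2 fold change of -0.83. The calls made up 77.8% of these markers, against 31.8% of all genes tested. Control and LPS did not overlap for 17 of the 18, against 65.2% of all genes tested. Krt19, a keratin of epithelia and of resting alveolar macrophages, had 27.6 and 32.5 CPM in the control libraries, 4.72 and 3.44 in LPS, then 1.47 and 2.19 with VD3 added. Every treated library lay below both controls, and the log2 fold change of LPS against control was -2.88 ± 0.27 (SE; adjusted p = 2.3e-05). Krt79, a second keratin of these cells, fell by 1.79 ± 0.19 on the log2 scale.

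Cdh1, the adhesion molecule E-cadherin, stood at 222 and 238 CPM in control, 30.4 and 35.8 in LPS, then 37.5 and 49.8 with VD3 added. Both controls lay far above all treated libraries, with a log2 fold change of -2.80 ± 0.19 after LPS (adjusted p = 2.8e-06). Cdh1 is also an epithelial gene, and the epithelial markers above reached no more than 5.54 CPM in sum in any library.

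Kcnn3 encodes a calcium-activated potassium channel. It measured 214 and 213 CPM in control, 81.5 and 81.5 in LPS, then 34.8 and 29.3 with VD3 added. These were 3 separate levels, with closely agreeing libraries, and the step from control to LPS was -1.39 ± 0.15 (adjusted p = 7.8e-05).

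The other 7 markers that fell had log2 fold changes of -1.54 to -0.78. Atp6v0d2, a subunit of the vacuolar proton pump, went from 1795 and 1944 CPM in control to 545 and 742 in LPS, the inhibitory receptor Cd200r1 from 139 and 169 to 51.3 and 74.4, and Siglec5 from 213 and 207 to 91.7 and 83.1. Their log2 fold changes were -1.54 ± 0.18, -1.29 ± 0.20 and -1.26 ± 0.15. The adhesion receptor Cd2, known mainly from lymphocytes, changed by -1.45 ± 0.21. The RNases Ear1 and Ear2 were at -0.88 ± 0.15 and -0.78 ± 0.18, and the mannose receptor Mrc1 was at -0.78 ± 0.19. Calls on Ear2 were lost without control 1 (adjusted p = 0.056) or control 2 (0.054), and the call on Mrc1 without control 2 (0.085).

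The 3 markers that rose were among the most abundant. Car4 had 930 and 929 CPM in control, 2794 and 2154 in LPS, then 2858 and 3860 with VD3 added. Marco had 1433 and 1440 CPM in control, 3530 and 3470 in LPS, then 3349 and 3912 with VD3 added. For 1600029D21Rik the values were 1433 and 1501 CPM in control, 3205 and 3093 in LPS, then 4064 and 5538 with VD3 added. Controls lay below all 4 treated libraries in each case. The log2 fold changes of LPS against control were 1.41 ± 0.19 for Car4 (adjusted p = 0.00029), 1.29 ± 0.15 for Marco (9.7e-05) and 1.10 ± 0.17 for 1600029D21Rik (0.00077). Car4 was at 1.19 ± 0.15 without LPS 1.

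Markers that did not pass included the integrin Itgax, with 2157 and 2154 CPM in control and 2554 and 2255 in LPS, and Cd9, with 1559 and 1568 against 2064 and 1721. Chi3l3 had 15332 and 15052 CPM in control and 17198 and 16195 in LPS, and the lysosomal glycoprotein Cd68 had 769 and 785 against 916 and 746. Only for Cd68 did control and LPS overlap. On library totals alone the direction of all 4 turned, from slightly higher to slightly lower, without passing.

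The plot of fold changes sets all members side by side for LPS and for added VD3.

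**Figure D3:**
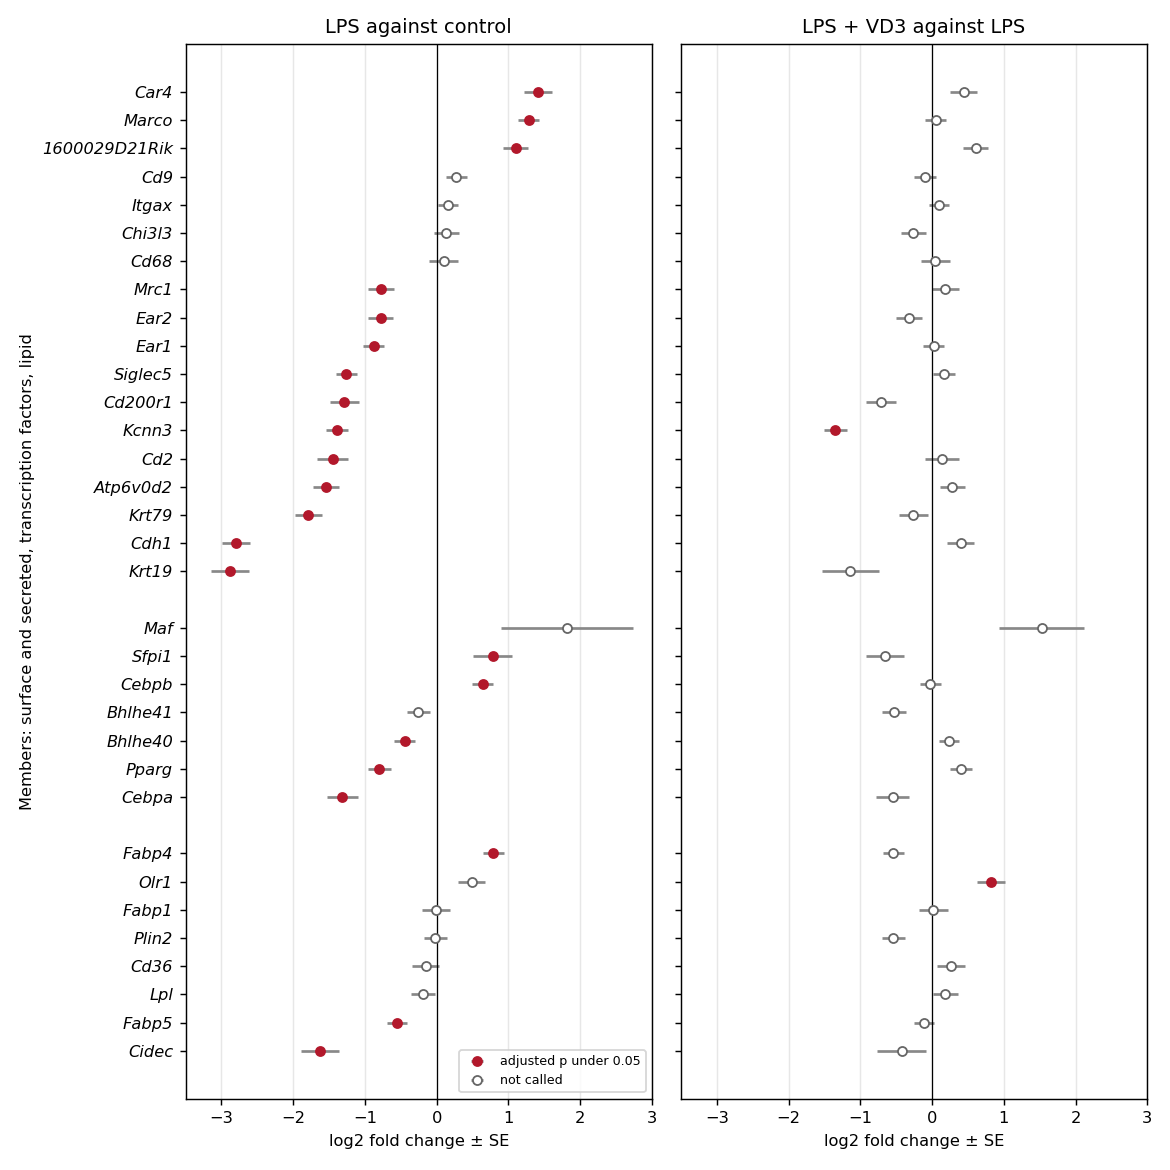
Log2 fold change ± SE (x) of each member (rows, grouped by surface and secreted markers, transcription factors and lipid genes) for LPS against control on the left and LPS + VD3 against LPS on the right, filled where the adjusted p is under 0.05. On the left 22 of 33 points are filled, from Krt19 at -2.88 to Car4 at 1.41, and on the right only Kcnn3 and Olr1 are.

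Of the 7 transcription factors, 3 fell and 2 rose after LPS, 71.4% of them against 31.8% of all genes tested. The count of 5 was 2 without control 1, 1 without control 2 and 3 without LPS + VD3 1, with no filter or with only the compared groups fitted. Cebpa, the C/EBP factor of myeloid differentiation, had 166 and 144 CPM in control, 70.6 and 54.0 in LPS, then 51.7 and 33.4 with VD3 added, with no overlap between control and the treated libraries. Its log2 fold change after LPS was -1.31 ± 0.22 (adjusted p = 0.0012). Cebpb, the C/EBP factor induced in inflammation, went the other way, from 177 and 160 CPM in control to 278 and 248 in LPS, then 255 and 262 with VD3 added. The change was 0.64 ± 0.15 (adjusted p = 0.0071), a call lost with library totals alone (0.088), on the deposited log2 values (0.079), with GC offsets (0.16), and without control 1 (0.069) or control 2 (0.15).

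Pparg, which encodes PPAR-gamma, measured 130 and 146 CPM in control, 78.0 and 80.9 in LPS, then 97.4 and 112 with VD3 added. The LPS libraries were lowest and the LPS + VD3 libraries lay between the others. LPS against control was -0.80 ± 0.16 (adjusted p = 0.0031, and 0.068 without control 2). LPS + VD3 against control had a log2 difference of -0.40 ± 0.16 that did not pass (adjusted p = 0.072), but it passed in several other fits, among them those without LPS 1 (0.0096) and without LPS 2 (0.015).

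Bhlhe40 and Bhlhe41 are paired repressors that support self-renewal of these cells. Bhlhe40 had 261 and 260 CPM in control and 199 and 183 in LPS, a log2 fold change of -0.45 ± 0.14 (adjusted p = 0.035). With VD3 added it had 218 and 232 CPM. The call was lost in 5 alternatives, with adjusted p up to 0.24 without either control library. Bhlhe41 had 315 and 317 CPM in control, 228 and 302 in LPS, then 184 and 183 with VD3 added. After LPS alone the log2 fold change of Bhlhe41 was -0.26 ± 0.16 and did not pass (adjusted p = 0.27). It passed at -0.55 on library totals alone (0.021) and on the deposited log2 values (0.020). Those settings shift the median of all genes by -0.29 and -0.28. Without LPS 2 it was at -0.47. LPS + VD3 against control was -0.79 ± 0.16 (adjusted p = 0.0043).

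Sfpi1, the gene of PU.1, was called, but the call was lost in 9 alternatives. It had 215 and 213 CPM in control, 480 and 255 in LPS, then 193 and 272 with VD3 added. Only LPS 1 was far above the rest. The log2 fold change after LPS was 0.78 ± 0.27 (adjusted p = 0.0496), and 0.23 ± 0.17 without LPS 1 (0.31).

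Maf had 1 and 3 counts in the control libraries, 3 and 9 in LPS, then 11 and 24 with VD3 added. The LPS + VD3 libraries were above all others. At 2.30 and 4.78 CPM, Maf remained the lowest of the transcription factors.

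Among the 8 lipid genes, 2 fell, 1 rose and 5 did not pass after LPS, with a median log2 fold change of -0.09. These 37.5% are near the 31.8% of all genes tested, and the count of 3 was 1 without control 1 and 5 without LPS 2. Cidec, a protein that enlarges lipid droplets, dropped from 12.8 and 11.9 CPM in control to 4.31 and 3.64 in LPS, and was at 2.93 and 2.99 in LPS + VD3. The 4 treated libraries were all below control, and the log2 fold change after LPS was -1.63 ± 0.27 (adjusted p = 0.0011).

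The fatty-acid-binding proteins, which carry lipids in the cytosol, moved apart. Fabp5 had 552 and 566 CPM in control, 395 and 369 in LPS, then 363 and 343 with VD3 added. Fabp4, a classical PPAR-gamma target, had 95.8 and 97.1 in control, 159 and 174 in LPS, then 118 and 111 with VD3 added. Thus Fabp5 fell by 0.55 ± 0.14 on the log2 scale (adjusted p = 0.012) where Fabp4 rose by 0.79 ± 0.15 (0.0023). Both lie on chromosome 3 in GRCm38, Fabp5 at 10012548 to 10016607 on the plus strand and Fabp4 at 10204088 to 10208576 on the minus strand. The Fabp5 call was lost without control 1 (0.12) or control 2 (0.16) and the Fabp4 call without control 1 (0.054). Fabp1, the liver-type member that these cells also express, was near 30 CPM in every group, at 29.8 and 31.1 in control, 31.4 and 28.9 in LPS, then 26.2 and 34.8 with VD3 added.

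Genes of lipid uptake were abundant in all groups. Lpl, the lipoprotein lipase, had 6448 and 7048 CPM in control, 5125 and 6725 in LPS, then 6407 and 7062 with VD3 added. Cd36, a receptor for fatty acids and oxidised lipoproteins, had 1060 and 1174 in control, 803 and 1206 in LPS, then 1253 and 1157 with VD3 added. All 3 groups overlapped for both genes, and neither passed in any of the 3 comparisons. Both were lower in LPS 1 than in LPS 2. The log2 fold changes after LPS were -0.19 ± 0.17 for Lpl and -0.15 ± 0.19 for Cd36. In that order they were -0.40 and -0.48 without LPS 2, and -0.02 and 0.09 without LPS 1. On library totals alone, which shifts the median of all genes by -0.29, Lpl passed at -0.48 (adjusted p = 0.046).

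Wider lists of the pathway, written down with earlier results in view, also held genes of both directions. Of 33 tested genes of neutral lipid storage, lipolysis and fatty acid oxidation, 4 rose and 14 fell after LPS (54.5%, against 31.8% of all genes tested), with a median log2 fold change of -0.36. Acsl1, which activates fatty acids, rose by 3.23 ± 0.15 on the log2 scale, while Soat1, which esterifies cholesterol, fell by 1.64 ± 0.17 and Cpt1a, which admits fatty acids to mitochondria, fell by 1.36 ± 0.15. Of 11 tested genes of the GM-CSF, TGF-beta and retinoid X receptor signals, 4 rose and 3 fell (63.6%). The cytokine receptor chain Csf2rb2 rose by 1.20 ± 0.15 and the GM-CSF signal transducer Stat5a by 1.28 ± 0.17. The TGF-beta receptors Tgfbr1 and Tgfbr2 were at -2.34 ± 0.24 and -2.11 ± 0.15.

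With VD3 added to LPS, few members were called, as were few of all genes tested. In LPS + VD3 against LPS, 2 of 33 members were called, 6.06% of them, against 3.83% of all genes tested (2.25% higher and 1.59% lower). Kcnn3 fell and Olr1 rose. The median log2 fold change was 0.02 over the members and -0.0025 over all genes, and groups did not overlap for 19 of 33 members, against 48.1% of all genes. Without LPS + VD3 2, a fit that leaves 1 library in that group, Kcnn3 was at -1.24 and Olr1 at 0.67 on the log2 scale. The comparison shares its LPS libraries with the one above.

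Kcnn3 went from 81.5 CPM in both LPS libraries to 34.8 and 29.3 in LPS + VD3, a log2 fold change of -1.35 ± 0.16 (edgeR adjusted p = 0.0017), or 0.393-fold. It was -1.36 ± 0.15 without LPS 1 and -1.34 ± 0.15 without LPS 2, and without LPS + VD3 2 it missed the threshold at -1.24 (adjusted p = 0.059). On the GRCm38 build Kcnn3 lies on chromosome 3 at 89520164 to 89675132, plus strand.

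Olr1, the receptor LOX-1 for oxidised lipoproteins, had 921 and 983 CPM in control, 1095 and 1575 in LPS, then 2132 and 2583 with VD3 added. The 3 groups did not overlap and rose in that order of means. For LPS + VD3 against LPS the log2 fold change was 0.82 ± 0.19 (adjusted p = 0.045). It was 0.57 ± 0.14 without LPS 1 (adjusted p = 0.035) and 1.11 ± 0.15 without LPS 2 (0.00018). The call was lost with RLE scaling (0.051), with no filter (0.16), when only LPS and LPS + VD3 were fitted (0.099), and without control 1 (0.099), control 2 (0.097), LPS + VD3 1 (0.13) or LPS + VD3 2 (0.39). In LPS against control Olr1 did not pass, at 0.49 ± 0.19 (adjusted p = 0.078), but did without LPS 1, at 0.71 ± 0.14 (0.00097).

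**Figure D4:**
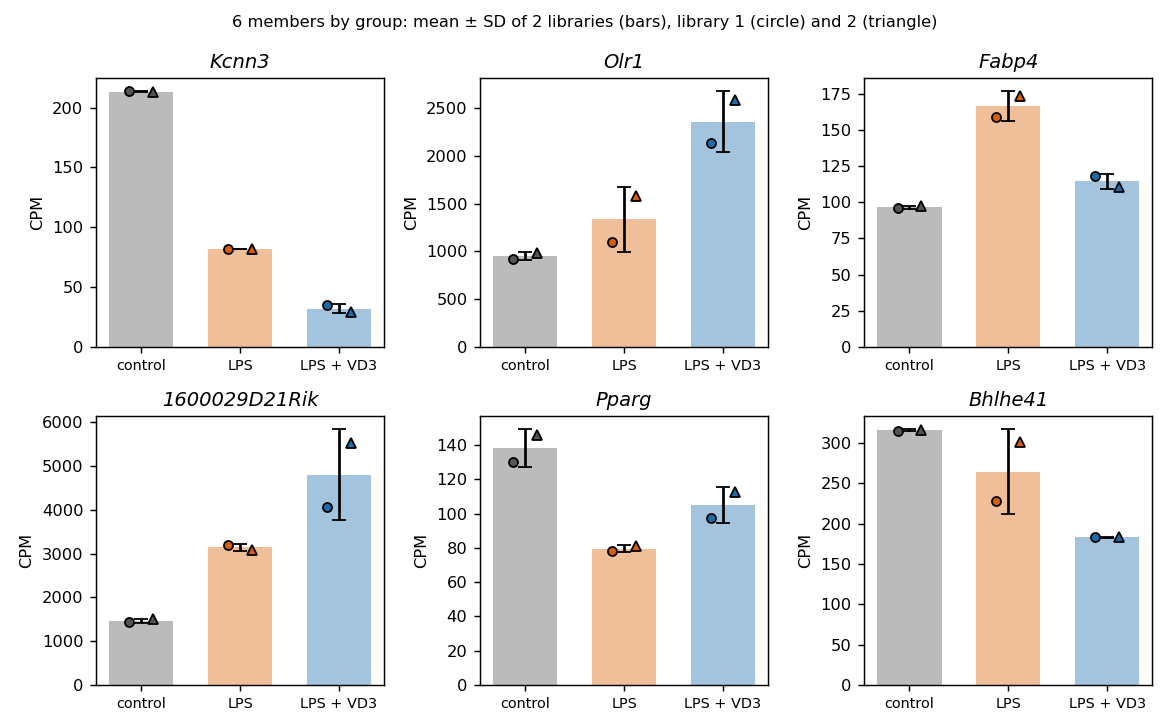
CPM (y) of Kcnn3, Olr1, Fabp4, 1600029D21Rik, Pparg and Bhlhe41 in the 3 groups, bars giving the mean ± SD of 2 libraries and symbols each library. Kcnn3 steps down from 213 to 81.5 CPM and lower still with VD3, Olr1 steps up to 2358 CPM, and the LPS libraries of Olr1 and Bhlhe41 lie apart.

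Another 5 members had adjusted p between 0.077 and 0.113 and were not called. Their LPS and LPS + VD3 libraries did not overlap, as was so for 48.1% of all genes tested. The log2 difference of LPS + VD3 from LPS was -0.54 ± 0.15 for Fabp4, 0.61 ± 0.17 for 1600029D21Rik, -0.71 ± 0.21 for Cd200r1, -0.54 ± 0.16 for Plin2, which coats lipid droplets, and -0.53 ± 0.16 for Bhlhe41. Plin2 had 717 and 691 CPM in control, 770 and 620 in LPS, then 523 and 434 with VD3 added. Cd200r1 went from 51.3 and 74.4 CPM in LPS to 36.8 and 40.0. For Krt19 the log2 difference was -1.14 ± 0.40 (adjusted p = 0.14).

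Without LPS 1, 7 members were called beside 486 of all genes (4.41%), with Car4 and 1600029D21Rik higher beside Olr1, and Fabp4, Cd200r1 and Bhlhe41 lower beside Kcnn3. Their log2 fold changes were then 0.63 ± 0.16, 0.62 ± 0.17, -0.61 ± 0.13, -0.96 ± 0.17 and -0.73 ± 0.12 in that order. Without LPS 2, 3670 of all genes were called (33.3%), 16 members among them, 9 higher and 7 lower, and Sfpi1 was at -1.04 (adjusted p = 0.00055). Each of these fits leaves 1 LPS library, assumed to vary like the other groups. With GC offsets, an alternative chosen after seeing the data, 7.77% of all genes were called. Of the members 1 was then higher and 5 lower, among them Fabp4 at -0.89 (adjusted p = 0.0028), Cd200r1 at -0.98 (0.00067), Bhlhe41 at -0.62 (0.011) and Plin2 at -0.46 (0.035).

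Of the 16 members that LPS lowered, Kcnn3 was the only one called in LPS + VD3 against LPS; for the others a difference was not shown, which does not show that levels were alike. Siglec5 had 96.1 and 100.3 CPM in LPS + VD3 against 91.7 and 83.1 in LPS, Ear1 106 and 105 against 101 and 106, and Mrc1 1077 and 1127 against 786 and 1152. Atp6v0d2 had 711 and 856 against 545 and 742, Ear2 189 and 200.5 against 285 and 201, and Cd2 12.1 and 16.3 against 12.3 and 13.6. Of these 6 markers, only Siglec5 (higher) and Ear2 (lower) had libraries that did not overlap with LPS, where 48.1% of all genes tested did not overlap. For Pparg the LPS + VD3 libraries were above both LPS libraries, but the difference did not pass (adjusted p = 0.18).

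In the lipid list beyond the members, Dgat1, which makes triglyceride, rose by 1.39 ± 0.21 on the log2 scale, and Cpt1a and the lysosomal phospholipase Pla2g15 fell by 1.02 ± 0.15 and 1.13 ± 0.21. These were 3 of 33 tested (9.09%, against 3.83% of all genes). In the signal list, Tgfbr2 rose by 2.28 ± 0.15 and Stat5a fell by 0.81 ± 0.16, 2 of 11 tested (18.2%). Among markers of other macrophages, Gata6, a factor of peritoneal macrophages, had mean CPM of 0.166 in control, 0.408 in LPS and 11.1 in LPS + VD3. Its counts were 1 and 1, 2 and 2, and 43 and 66 in that order. Like Maf it passed the filter only through LPS + VD3, so no test is given, and its part in the results on members was not tested.

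Against control, LPS + VD3 called 6 members higher and 16 lower, 66.7% of the members against 35.0% of all genes tested (17.7% higher and 17.3% lower). The median log2 fold change was -0.40 over the members and 0.01 over all genes, and groups did not overlap for 27 of 33, against 75.8% of all genes. This comparison shares its control libraries with that of LPS alone, so the values stand side by side and not as separate evidence. The 6 higher include Maf, which entered the test only through LPS + VD3, and are 5 without it. In both, 14 members were lower and 4 higher: Marco, Car4, 1600029D21Rik and Cebpb. Sfpi1 and Fabp4 were called higher, and Pparg and Bhlhe40 lower, in LPS alone. Olr1 was called higher, and Bhlhe41 and Plin2 lower, in LPS + VD3 alone. These differences in calls are not tests of a difference; the values of LPS + VD3 against LPS above are.

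The members farthest from control in LPS + VD3 were Krt19 (-4.02 ± 0.30, adjusted p = 5.4e-06), Kcnn3 (-2.74 ± 0.16, 1.2e-06), Cdh1 (-2.40 ± 0.19), Cidec (-2.05 ± 0.28) and Krt79 (-2.05 ± 0.19) on the lower side, followed by Cd200r1 at 0.250-fold. On the higher side were Car4 (1.85 ± 0.19), 1600029D21Rik (1.71 ± 0.18), Marco (1.34 ± 0.15) and Olr1 (1.31 ± 0.19, adjusted p = 0.0005). Plin2 was at -0.56 ± 0.16, a call lost without control 1 (adjusted p = 0.18), control 2 (0.13) or LPS + VD3 2 (0.15). The Mrc1 call (-0.59 ± 0.18) was lost without any 1 of the 4 compared libraries, with adjusted p up to 0.195. The call on Cebpb (0.62 ± 0.15) was lost with library totals alone (0.14), on the deposited log2 values (0.12) and without control 1 (0.075), control 2 (0.15) or LPS + VD3 2 (0.067), and that on Fabp5 (-0.66 ± 0.14) without control 1 (0.059) or control 2 (0.074).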

How the data were processed

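The members and gene lists were chosen with earlier results of these data known. The authors deposited raw counts for each gene in each of the 6 libraries. TopHat2, edgeR and mm10 appear in the submitters' processing notes. The sources used here do not name the counting program, annotation or strand setting, so reads of antisense or overlapping genes cannot be told apart. The second deposited table holds log2 values, which differ by at most 0.00423 from log2(CPM + 1) of the counts. It was used in an alternative only, and holds 31 of the 33 members (not Maf and Fabp1).

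The test was edgeR's (version 4.0.16, R 4.3.3). Its filterByExpr (minimum count 10, minimum total 15) left 10724 of 23413 genes, with TMM scaling and a quasi-likelihood fit of 3 group means over all 6 libraries. Each contrast was adjusted by Benjamini-Hochberg over all genes tested, two-sided, with calls at 0.05. SE is |log2 fold change| over the root of F. Fold changes of this fit are printed for members with adjusted p under 0.15, and for Bhlhe41, Lpl and Cd36 after LPS. Others are given as CPM, a rule chosen after seeing the data. Log2 values from alternatives are also given for some members that this rule leaves as CPM. Values of passing members and of every transcription factor were given; from each added list at most 4 passing genes per comparison, by smallest p, were named. Alternatives were DESeq2 1.42.0, limma 3.58.1 on the log2 values, RLE or no scaling, no filter, compared groups only, a replicate block, GC offsets and each library left out. The test was tried on simulated counts. Lengths and GC content are from GENCODE M21 (GRCm38).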

Additional observations from a re-analysis of the deposited data

How the results depend on the processing

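No log2 fold change of a member with adjusted p under 0.15 turned its direction in any alternative. In LPS against control and LPS + VD3 against control, the count of 22 called members stayed within 1.5 times in every alternative: 15 to 26 and 18 to 24 with 1 library left out. The VD3 comparison was less stable. Its 2 called members became 1 with RLE scaling, 1 with no filter, 1 with the compared groups only, 4 with DESeq2, 6 with GC offsets (chosen after seeing the data) and 8 with a replicate block; leaving out 1 library gave 0 to 16, the 0 without LPS + VD3 2. Over all genes, 411 calls became 169 with no filter, 258 with the compared groups only, 833 with GC offsets and 1152 with the replicate block, and 55 to 3670 with 1 library left out. The counts of 3411 in LPS against control and 3749 in LPS + VD3 against control ranged from 1940 to 4829 and from 2126 to 5410 with 1 library left out. In LPS + VD3 against control, library totals alone made 25.9% of calls higher in place of 50.6% (median shift -0.33), and in LPS + VD3 against LPS no filter made 72.8% higher in place of 58.6%, leaving out LPS + VD3 1 90.4% and leaving out LPS + VD3 2 90.9%. The cause of these shifts was not tested. The labels of LPS + VD3 carry the numbers of the LPS libraries but do not say what a number marks. Deviations of same-numbered libraries correlated across genes at 0.221 (LPS and LPS + VD3), 0.214 and 0.115 (control with each). With the replicate block, 1600029D21Rik and Olr1 were higher and Kcnn3, Cd200r1, Cebpa, Bhlhe41, Fabp4 and Plin2 lower in LPS + VD3 against LPS. Depth limits Maf (1 to 24 counts), Krt19 (7 to 203 counts) and Cidec (14 to 75 counts).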
